A study of Homo sapiens with 4 samples.

Results

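Cathepsins are proteases known mainly from the lysosome. Their genes, 10 of them, were followed here in DAOY cells carrying short hairpin RNAs against ZFX, a zinc finger transcription factor. The genes were chosen by symbol (CTSA, CTSB, CTSC, CTSD, CTSF, CTSH, CTSK, CTSO, CTSS and CTSZ). They are 10 of the 18417 genes that have a probe set paired with exactly 1 symbol, and each is read by 1 such probe set. A probe set is the group of probes that gives 1 value for a transcript, and the value is an intensity on a linear scale. Genes were tested if their log2 intensity, averaged over the arrays, reached 6.78, the 25th percentile of all genes. This left 9 of the 10 cathepsins among 13813 genes, since CTSO averaged 6.71.

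DAOY is an established human medulloblastoma cell line. The study has 4 samples, each on 1 array: cells given lentivirus with an anti-ZFX hairpin named H2, H3 or H4 (genotype ZFX KD), and cells given a non-targeting scrambled hairpin, SCR (genotype Ctrl). All 4 cultures, the control included, went through 16 to 24 hours of transduction, 48 hours of recovery and about 48 hours in 2 ug/mL puromycin, and 250 ng of total RNA was labelled. The labels do not say whether transductions were repeated. The p-values rest only on the spread between the H2, H3 and H4 arrays, and every comparison shares the same scrambled array. In RNA from a whole culture, fewer expressing cells and less RNA per cell cannot be told apart.

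ZFX itself read 1430 in SCR and 745 (H2), 749.6 (H3) and 996 (H4), which is 52.1%, 52.4% and 69.6% of the scrambled value. Array medians lay between 226.0 and 232.3. H2 and scrambled were the least alike pair (r = 0.9921 across probe sets), against 0.9962 for H3 and 0.9951 for H4. Pairs of hairpin arrays gave 0.9941 (H2 and H3), 0.9935 (H2 and H4) and 0.9953 (H3 and H4). H3 was thus more like SCR than like H2 or H4. Of a list of 17 cerebellar granule lineage and medulloblastoma markers, 16 were measured and 14 lay above the intensity filter. Of these 14, 5 were below and 6 above SCR with every hairpin (median 0.0), from SFRP1 at -0.38 to EOMES at 0.13. The summed intensity of the list was 19699 to 20098 with the hairpins and 19753 in SCR, of which VIM, a widely expressed gene, gave 13543 to 13937 and 13031. GLI1 (87.2 to 94.6) and NES (108 to 113) lay under the filter.

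Cathepsins are made as inactive precursors, tagged with mannose 6-phosphate in the Golgi, carried to acidic endosomes and lysosomes, and matured there by removal of a propeptide. Most are cysteine proteases related to papain, whereas CTSD is an aspartic and CTSA a serine protease. Cystatins hold the cysteine cathepsins in check, and transcription factors of the TFEB family, which bind a CACGTG core, are known to control many lysosomal genes together. In tumours secreted cathepsins are known for cutting extracellular matrix.

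The promoters are shown because cathepsins were found above and below SCR, and because lysosomal genes are known to share the CACGTG core. The RefSeq promoter table (GRCh38.p14) was matched and searched for 6 of the 10 members: CTSA, CTSC, CTSD, CTSF, CTSH and CTSZ. CTSS, CTSK and CTSO had no match, and CTSB was not used here. The 250 bases before the start are given for 3 members, each 5′ to 3′ on the gene's strand with CACGTG in capitals. CTSZ (chr20:59007255-59007504, minus strand) was below SCR with every hairpin, as was CTSD (chr11:1763928-1764177, minus strand). CTSC (chr11:88337737-88337986, minus strand) was above it with every hairpin.
CTSZ: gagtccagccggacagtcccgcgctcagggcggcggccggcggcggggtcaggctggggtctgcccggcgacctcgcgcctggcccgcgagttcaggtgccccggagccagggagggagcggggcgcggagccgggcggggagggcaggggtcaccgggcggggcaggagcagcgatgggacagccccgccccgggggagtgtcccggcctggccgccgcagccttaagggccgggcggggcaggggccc
CTSD: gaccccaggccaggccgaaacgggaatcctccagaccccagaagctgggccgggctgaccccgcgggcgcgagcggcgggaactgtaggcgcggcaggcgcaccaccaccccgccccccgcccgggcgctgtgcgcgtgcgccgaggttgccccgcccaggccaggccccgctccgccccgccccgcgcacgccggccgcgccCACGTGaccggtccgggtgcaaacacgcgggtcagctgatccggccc
CTSC: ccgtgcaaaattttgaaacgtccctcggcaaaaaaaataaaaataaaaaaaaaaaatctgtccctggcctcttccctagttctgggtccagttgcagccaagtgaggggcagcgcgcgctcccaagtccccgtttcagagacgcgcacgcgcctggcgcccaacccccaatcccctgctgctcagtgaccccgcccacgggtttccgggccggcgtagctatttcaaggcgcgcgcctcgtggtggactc
The bases are 81.2% G or C for CTSZ, 79.2% for CTSD and 58.4% for CTSC, where the median of all 35116 promoters is 58.0%. CTSF and CTSH, which were also below SCR with every hairpin, have 56.4% and 74.4%. CTSA, which lay on both sides, has 65.6%. Matches to the GC box GGGCGG on either strand were 5 each for CTSZ, CTSD and CTSH, 2 for CTSA, 1 for CTSC and 0 for CTSF. Of all promoters, 42.6% hold at least 1.

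The CACGTG core was found in 3 of the 6 promoters, CTSA, CTSD and CTSF, and 6.34% of all 35116 windows of this length hold it on either strand (it reads the same on both). The windows of 30 bases around each match, with the core in capitals, begin with CTSA, whose 2 cores start 42 and 25 bases before the gene and overlap in these windows.
CTSA: gaggaagactgtCACGTGgcgccggagttc
CTSA: ggcgccggagttCACGTGactcgtacacat
CTSD: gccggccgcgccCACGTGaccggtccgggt
CTSF: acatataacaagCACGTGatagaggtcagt
CTSF: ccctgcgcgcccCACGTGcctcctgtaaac
The core of CTSD starts 47 bases before the gene, and those of CTSF start 123 and 51 bases before it. AGGCCT, a core reported for ZFX, which also reads the same on both strands, was found in 1 of the 6 promoters, CTSH, 230 bases before the start, and in 9.2% of all promoters. Its window, with AGGCCT in capitals, is the following.
CTSH: caggactcagccAGGCCTgatacccagata
A pattern of interferon response elements, GAAA repeated after a spacer of 2 bases, was found on either strand in 0 of the 6 and in 3.02% of all. These are matches of letters in a short window and say nothing of binding.

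CTSS, cathepsin S, had the largest difference. It is a cysteine protease known from antigen-presenting cells, where it trims the invariant chain of MHC class II, and it stays active outside the lysosome at neutral pH. CTSS (probe set 7919800) read 742 in SCR, 316 in H2, 371 in H3 and 376 in H4. The 3 hairpin arrays lay close together and all far below the scrambled one, at 42.6% of it in H2 and 50.7% in H4, with H3 just under H4. On average CTSS differed by -1.07 ± 0.14 on the log2 scale (SD, n = 3), or stood at 47.6% of the scrambled level, with a 95% interval of -1.48 to -0.66 in limma. This was the 16th lowest mean difference of the 13813 genes. CTSS was 1 of 43 genes (0.311% of those tested) lower than SCR by 1.5-fold or more with each hairpin, and 0 cathepsins were among the 7 genes (0.0507%) higher by as much.

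CTSB, cathepsin B, and CTSZ, cathepsin Z (also called X), came next. CTSB is an abundant cysteine protease that works both inside chains and from the carboxyl end, and CTSZ removes residues from the carboxyl end only. CTSB (probe set 8149330) read 3953 in SCR, 2373 in H2, 3178 in H3 and 3246 in H4. H2 was much the lowest, at 60.0% of scrambled, with 80.4% for H3 and 82.1% for H4, and the mean log2 difference was -0.45 ± 0.25 (SD, n = 3). CTSZ (8067279) read 1607 in SCR, 1230.2 in H2, 1285 in H3 and 1011 in H4. Here H4 was the lowest, at 62.9%, with 76.6% for H2 and 80.0% for H3, and the mean difference was -0.46 ± 0.18. Both genes kept a gap to the nearest hairpin array of 0.28 (CTSB) and 0.32 (CTSZ) on the log2 scale, smaller than the range between hairpins of 0.45 and 0.35.

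**Figure D1:**
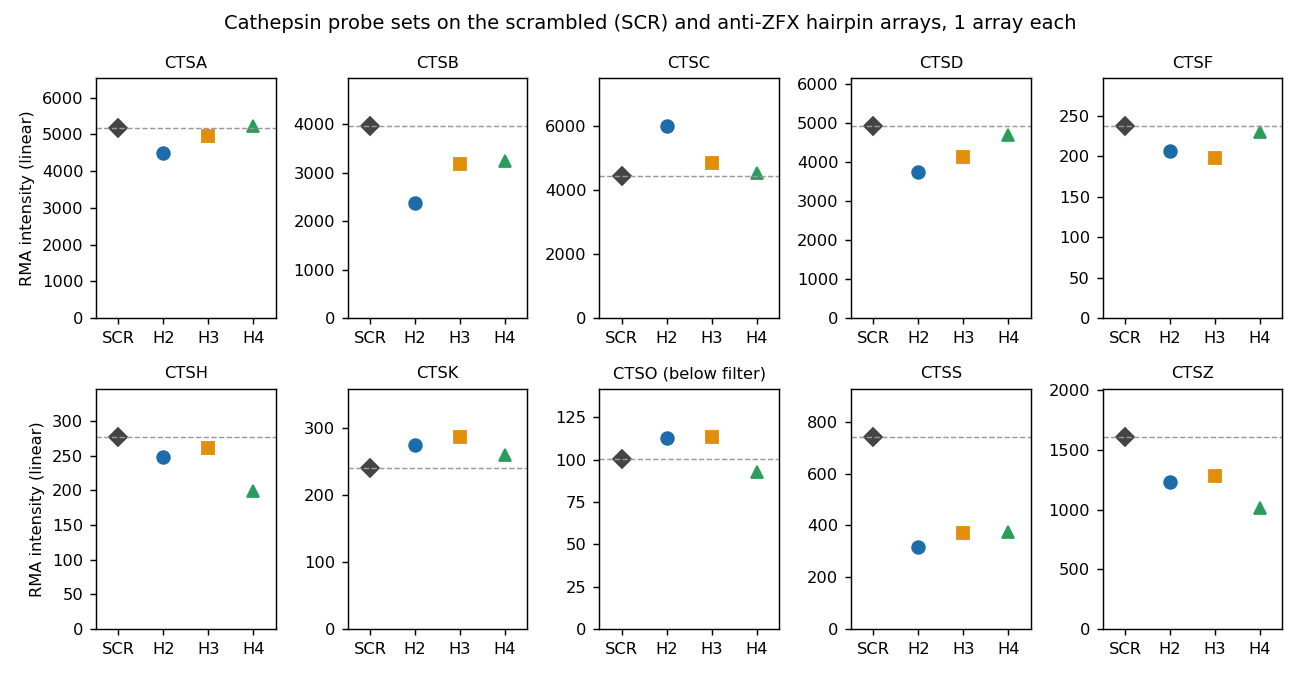
RMA intensity (linear scale, starting at 0) of the 10 cathepsin probe sets on the scrambled (SCR) array and the H2, H3 and H4 arrays, 1 point per array, with a dashed line at the scrambled value. CTSS reads 742 in SCR and between 316 and 376 with the hairpins, CTSB and CTSZ lie below the line with every hairpin, and CTSC and CTSK lie above it.

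CTSD, CTSH and CTSF stood slightly below the scrambled array on every hairpin array. CTSD, the main aspartic protease of lysosomes, whose loss causes a neuronal storage disease, read 4905 in SCR and 3743 (H2), 4122 (H3) and 4688 (H4). The 3 arrays were spread out from 76.3% to 95.6% of scrambled, and the mean log2 difference was -0.24 ± 0.16 (SD, n = 3). CTSH, an aminopeptidase, read 277 in SCR and 248 (H2), 261 (H3) and 199 (H4). H4 alone was clearly lower, at 71.8%, and the mean of -0.24 ± 0.21 was -0.12 without H4. CTSF, a cysteine protease with a long propeptide, read 237 in SCR and 206 (H2), 198 (H3) and 230.0 (H4), a mean difference of -0.17 ± 0.11. For all 3 genes the gap between SCR and the nearest hairpin array (0.085 or less on the log2 scale) was smaller than the range of the hairpin arrays.

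CTSC and CTSK stood on the other side. CTSC, also called dipeptidyl peptidase I, removes dipeptides and matures the granule serine proteases of immune cells. It read 4445 in SCR, 5993 in H2, 4862 in H3 and 4524 in H4, so that H2 stood out, at 134.8%, and H4 was almost level, at 101.8%. The mean log2 difference was 0.20 ± 0.21 (SD, n = 3) and 0.077 without H2. CTSK, the collagen-cutting protease of osteoclasts, read 241 in SCR and 275 (H2), 287 (H3) and 259.6 (H4), all higher, with a mean difference of 0.18 ± 0.072. The CTSK gene lies beside CTSS on chromosome 1, with 0 protein-coding genes between them in RefSeq, and the pair stood at 113.5% and 47.6% of the scrambled level.

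CTSA and CTSO lay on both sides of SCR. CTSA, the serine carboxypeptidase that also shields beta-galactosidase and neuraminidase, read 5172 in SCR and 4493 (H2), 4961 (H3) and 5218 (H4). H2 lay furthest from SCR, at 86.9%, and the mean log2 difference was -0.083 ± 0.11 (SD, n = 3), and -0.024 without H2. After quantile normalization of the table its H4 array also lay below the scrambled one. CTSO, a little-studied cysteine protease, was dim, with 100.6 in SCR and 112.7 (H2), 113.2 (H3) and 92.6 (H4), and was not tested.

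**Figure D2:**
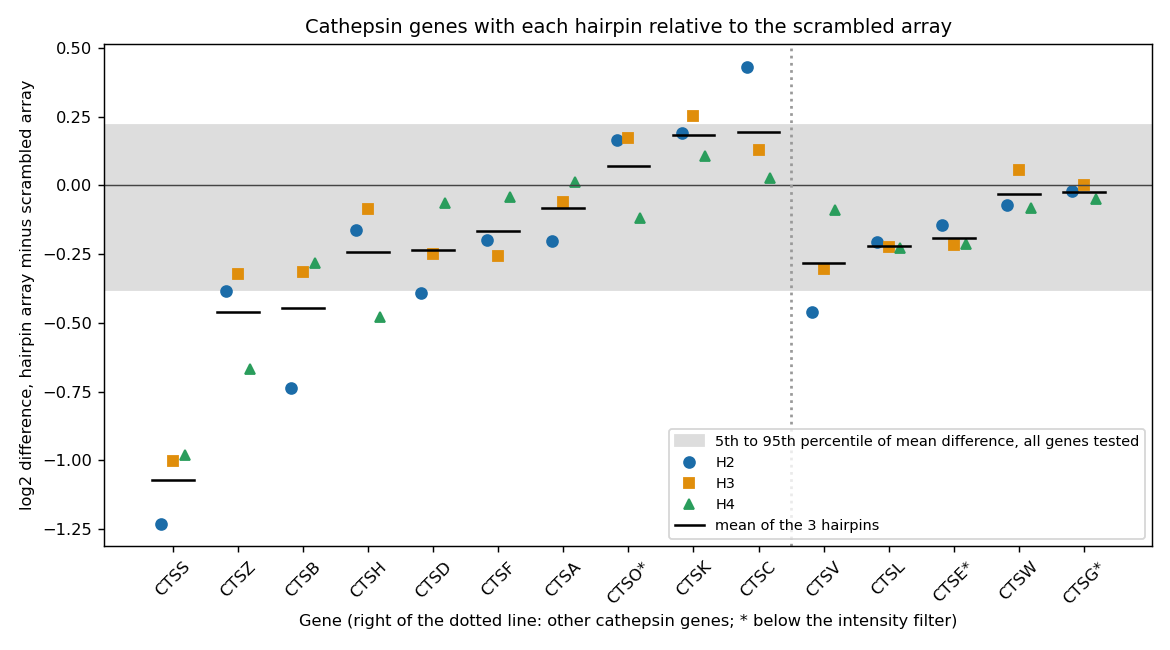
Log2 difference from the scrambled array with H2 (circles), H3 (squares) and H4 (triangles), with the mean as a bar, for the 10 cathepsins and, right of the dotted line, 5 other cathepsin genes. The grey band holds the 5th to 95th percentile of the mean differences of all 13813 genes (-0.38 to 0.22); CTSS, CTSB and CTSZ have means below it and no cathepsin has a mean above it.

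Of the 9 cathepsins tested, 6 were below SCR with every hairpin (CTSB, CTSD, CTSF, CTSH, CTSS and CTSZ), where 30.6% of all genes were, and 2 were above it with every hairpin (CTSC and CTSK), where 16.9% were. Centring each array on its median left 6 and 2, while the shares of all genes became 23.3% below and 23.6% above. Cyclic loess gave 6 and 2 members with 26.5% and 20.5% of all genes, and quantile normalization 7 and 2, with 3460 and 3042 of the 13813 genes. Some members so counted were almost level with SCR in H4. CTSF stood at -0.003 there after centring and after quantile normalization, and CTSC at 0.004 after quantile normalization. At least 1.2-fold below with every hairpin were 3 of the 9 (CTSB, CTSS and CTSZ), against 2.94% of all genes, and at least 1.2-fold above were 0, against 0.709%. CTSB dropped out of these with centring. By single hairpins, CTSB and CTSS were at least 1.5-fold below with H2 (5.61% of all genes), CTSS with H3 (1.14%), and CTSS and CTSZ with H4 (2.17%). With each single hairpin 0 of the 9 were at least 1.5-fold above (0.992%, 0.528% and 0.608% of all genes). Their median difference from SCR was -0.20 in H2, -0.25 in H3 and -0.065 in H4, where the medians of all genes tested were -0.03, -0.021 and -0.046. The H4 median was thus close to that of all genes, and with centring it was -0.025, against -0.006. The median of their means was -0.24, or -0.20 over all 10 members, where all genes tested had a median of -0.035.

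In limma's moderated test with Benjamini-Hochberg adjustment, 0 of the 9 cathepsins and 0.0% of the 13813 genes passed an adjusted p of 0.05, and the adjusted p of each cathepsin was 0.9998. CTSS had an unadjusted p of 0.00094 in limma, and was the 1 cathepsin under 0.05 before adjustment, as were 2.48% of all genes on the lower and 0.746% on the higher side. CTSZ had an unadjusted p of 0.0528 and CTSB of 0.0835 in limma, with 95% intervals of -0.93 to 0.01 and -0.97 to 0.08. Without H2 the mean difference of CTSB was -0.30. The intervals of the other 6 tested members all held 0, from -0.71 at the lowest (CTSH) to 0.64 at the highest (CTSC). ZFX, the target of the hairpins, did not pass the adjusted threshold either. An exact two-sided permutation test with 1 array against 3 cannot go below 0.25, the value of CTSS, CTSZ and CTSK.

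The gap between the scrambled array and the nearest hairpin array was compared with the range of the hairpin arrays. In the deposited values this set CTSS apart from the other members. Its gap was 0.98 on the log2 scale and its range 0.25. It was the 1 member of 9 with a gap wider than the range below scrambled (6.92% of all genes), and 0 members had one above (3.85%). CTSZ joined it after quantile normalization (5.85% of all genes). CTSK had such a gap above scrambled after centring, quantile normalization or cyclic loess (5.59%, 5.04% and 4.97% of all genes). The lowest array was H2 for CTSA, CTSB, CTSD and CTSS, H4 for CTSC, CTSH, CTSK and CTSZ, and H3 for CTSF. ZFX was lowest with H2 and H3 and least reduced with H4. Whether the order of the arrays for the members goes with that for ZFX was not tested.

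**Figure D3:**
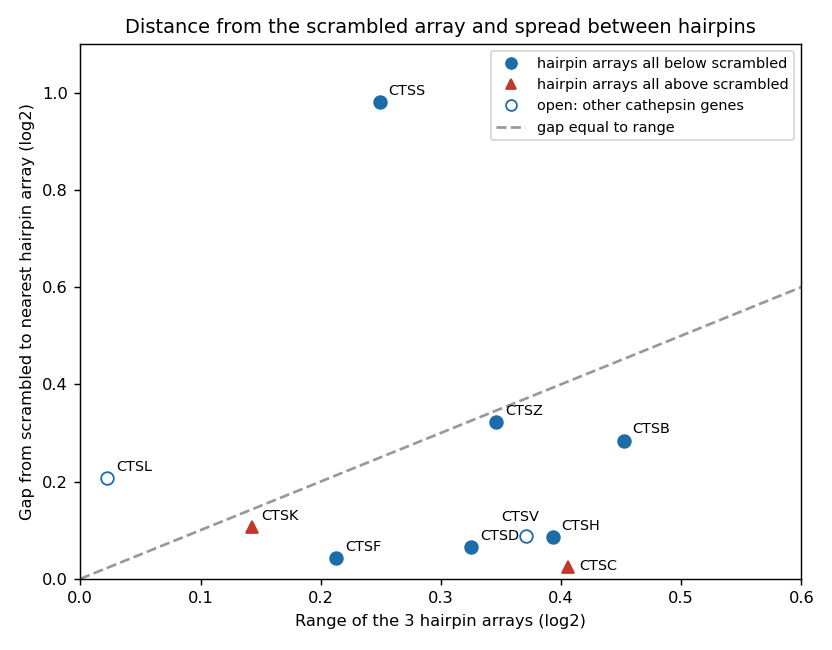
Gap from the scrambled array to the nearest hairpin array (vertical, log2) against the range of the 3 hairpin arrays (horizontal, log2) for tested cathepsin genes whose hairpin arrays all lie on the same side of scrambled; the dashed line marks equality. CTSS (gap 0.98, range 0.25) and CTSL (0.21 and 0.022) lie above the line and the other genes below it.

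Another 5 cathepsin genes with a probe set of their own were read beside the members. CTSL, cathepsin L, a broad endopeptidase of lysosomes, read 1650.2 in SCR and 1429.7 (H2), 1412 (H3) and 1408 (H4). The 3 hairpin arrays were nearly the same, at 86.6%, 85.6% and 85.3% of scrambled, and the mean log2 difference was -0.22 ± 0.012 (SD, n = 3). CTSV, also a cysteine endopeptidase, read 266 in SCR and 194 (H2), 216 (H3) and 250.5 (H4), a mean of -0.28 ± 0.19, in nearly the same steps as CTSD (distance 0.091 over the 3 log2 differences, the smallest of any 2 tested cathepsin genes). CTSL and CTSV are close relatives in sequence, and whether their probes share signal was not tested. CTSW, known from cytotoxic lymphocytes, lay on both sides (131 on the scrambled array and 125, 136 and 124). CTSE and CTSG were under the filter, at 69.0 to 80.2 and 74.1 to 76.7. None of the 3 tested genes passed the test (adjusted p = 0.9998 for each in limma).

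The genes nearest to CTSS over the 3 hairpin differences were SRGN, ALOX5AP, DDX60, PHLPP2 and KYNU, by Euclidean distance on the log2 scale among the genes tested. SRGN, the granule proteoglycan serglycin, was nearest (distance 0.19), with log2 differences of -1.06 (H2), -0.95 (H3) and -1.03 (H4). The others lay at 0.33 to 0.35 and stood at 46.0% to 53.6% of the scrambled level. ALOX5AP helps make leukotrienes, DDX60 is an interferon-induced helicase, PHLPP2 is a phosphatase and KYNU breaks down kynurenine. Several of these genes are known from leukocytes, so 15 leukocyte and macrophage markers were read on the same arrays. Of 13 measured, 8 lay under the filter, and PTPRC, the defining marker, read 42.2, 42.4, 41.9 and 43.0 with H2, H3, H4 and scrambled, where the lowest intensities on the arrays were 22.7 to 24.2. The summed intensity of the 13 was 3337, 4722 and 3729 with the hairpins and 4091 with scrambled, on both sides. Much of it came from CD68, itself a lysosomal membrane protein (1853, 3253, 2273 and 2570.4 in the same order). Of the 5 tested, 1 was below SCR with every hairpin (30.6% of all genes) and 1, CD8A, above (16.9%), with a median of -0.034. The gene below, as CTSS was, was CSF1R, the macrophage growth factor receptor, at 73.0%, 74.9% and 90.0%. CSF1R and CD8A were named after their values were seen. The part of these markers in the CTSS difference was not tested.

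A list of endogenous protease inhibitors, not all of which act on cathepsins, was read beside them. Of 12 tested, 7 were below SCR with every hairpin and 3 above (median -0.13, and -0.069 without H3), where 30.6% and 16.9% of all genes were. Those below were the cystatins CSTB, CST3 and CST6, and SERPINA1, SERPINB8, SERPINB9 and SPINT2, which are not cystatins. CSTB, the cytosolic cystatin B, was at 93.9%, 81.7% and 98.1% of scrambled with H2, H3 and H4, and CST3, the secreted cystatin C, at 88.0%, 89.9% and 94.7%. CST6, cystatin E/M, read 200.6 in SCR and 191 (H2), 169.6 (H3) and 189 (H4). CST7, cystatin F, lay on both sides, and CSTA (43.6 to 47.3) was under the filter. The 3 inhibitors above SCR with every hairpin were the secreted cystatins CST4 (108.9%, 107.2% and 109.9%) and CST5 (109.8%, 106.4% and 112.2%) and the serpin SERPINB1 (112.2%, 121.3% and 130.2%), named after their values were seen. Tested cystatins thus lay on both sides, and each by little.

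The delivery route held the largest difference in the other direction among these lists. M6PR, the cation-dependent mannose 6-phosphate receptor that carries cathepsins to endosomes, read 2928 in SCR and 5041 (H2), 4075 (H3) and 3676 (H4). All 3 hairpin arrays were above the scrambled one, and the mean log2 difference was 0.53 ± 0.23 (SD, n = 3), or 1.44-fold (unadjusted p = 0.0383 and adjusted p = 0.9998 in limma). IGF2R, the larger receptor for the same tag, was at 72.8% with H2 and 96.1% and 94.9% with H3 and H4, and GNPTAB, which adds the tag, at 97.2%, 104.0% and 105.2%. Of 16 tagging and sorting genes tested, 7 were below SCR with every hairpin (30.6% of all genes) and 1, M6PR, above (16.9%), with a median of -0.15. Without H2 there were 4 above (23.5% of all genes) and the median was -0.068, and without H3 the median was -0.22.

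Among other lysosomal proteases and cofactors, 7 of 12 were below SCR with every hairpin (30.6% of all genes) and 1 above (16.9%), with a median of -0.21. Without H3 there were 2 above (23.5% of all genes) and without H4 there were 3 (27.9%). LGMN, the asparaginyl endopeptidase that trims several cathepsins, was at 77.5%, 88.6% and 92.0% with H2, H3 and H4. TPP1, a tripeptidyl peptidase, was at 87.6%, 90.3% and 78.9%, and GRN, progranulin, which cathepsins cut into granulins, at 84.0%, 96.1% and 80.0%. These stood below scrambled on every hairpin array. The partners of CTSA did not: GLB1, beta-galactosidase, was at 111.1%, 102.6% and 105.5%, and NEU1, neuraminidase, at 111.7%, 122.9% and 84.7%. PSAP, the saposin precursor that CTSD cuts, was at 86.0%, 95.6% and 104.0%.

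The acid pump, the membrane and the regulators of the lysosome were read in the same way. Of 17 V-ATPase genes, 7 were below SCR with every hairpin (30.6% of all genes) and 1 above (16.9%), with a median of -0.11. Without H2 there were 4 above (23.5% of all genes) and the median was -0.062. Of 11 lysosomal membrane genes, 3 were below and 1 above (30.6% and 16.9% of all genes), with a median of -0.052. That median was -0.084 without H2, with 6 below (40.1% of all genes), -0.017 without H3 and -0.02 with centring, and without H4 there were 3 above (27.9%). LAMP1 was at 85.9%, 91.2% and 90.0% of scrambled and LAMP2 at 73.8%, 87.1% and 88.3%. Both are heavily glycosylated coat proteins of the lysosome. Of 13 lysosome regulators, 7 were below (30.6% of all genes) and 0 above (16.9%), with a median of -0.14. It was -0.085 without H2 and -0.093 without H4, and without H4 there was 1 above. Among these, TFEB (103.2%, 98.0% and 88.9%), TFE3 (93.4%, 105.0% and 85.8%) and MITF (75.3%, 83.4% and 118.8%), which bind CACGTG, each lay on both sides.

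The settings in which CTSS, CTSC and CTSK are best known were read as well. Of 8 MHC class II pathway genes tested, 4 were below SCR with every hairpin (30.6% of all genes) and 0 above (16.9%), with a median of -0.092 that was -0.06 with centring. That median was -0.107 without H3, with 6 genes below (40.6% of all genes), and -0.115 without H4, with 6 below (39.4%). Of 7 granule proteases matured by CTSC, 1 was below and 2 above (median 0.042), and of 5 osteoclast genes 2 were below and 0 above (median -0.03), against the same shares of all genes. Leaving out H2 turned the granule median to -0.01, with 3 genes below (40.1% of all genes), and leaving out H3 turned the osteoclast median to 0.014, with 1 gene above (23.5%). Without H4 there were 4 osteoclast genes below (39.4%). With median centring the osteoclast median was 0.002, with 0 genes below (23.3% of all genes) and 2 above (23.6%), and 0 granule proteases were below. Over the 9 related lists 0 genes passed the test in limma in either direction, and 3 had an unadjusted p under 0.05, where 446 of all 13813 genes did.

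**Figure D4:**
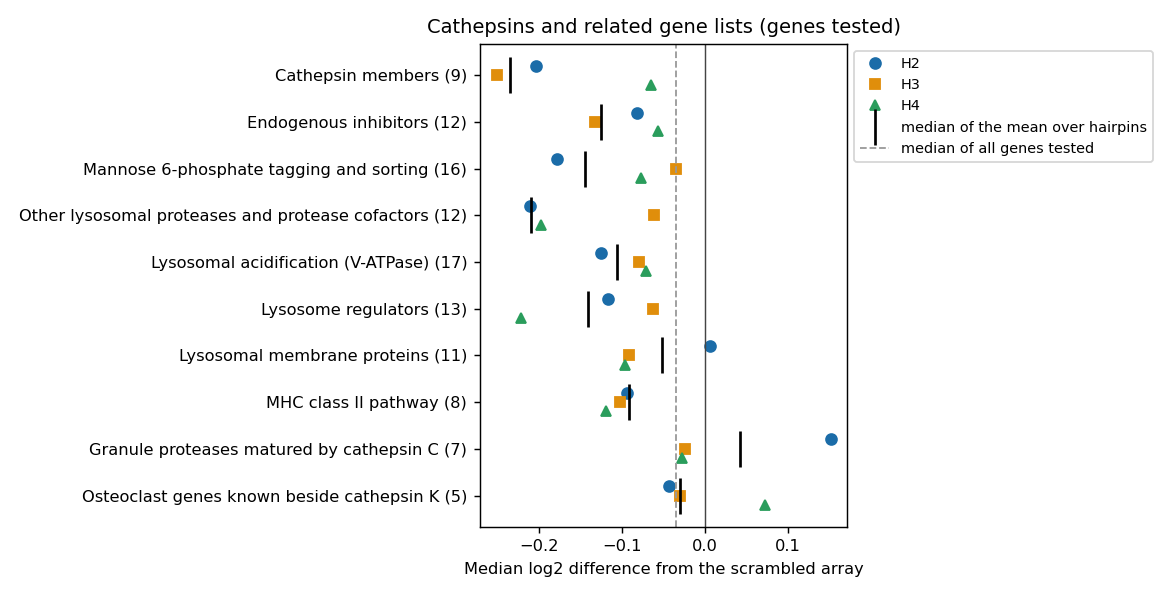
Median log2 difference from the scrambled array for the tested cathepsins and 9 related gene lists (number of genes tested in brackets), with H2 (circles), H3 (squares), H4 (triangles) and the median of the means (bar); the dashed line is the median of all genes tested (-0.035). The cathepsins have the lowest bar, at -0.24, followed by the other lysosomal proteases at -0.21, and the granule protease list has the highest, at 0.042.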

How the data were processed

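RNA from 4 DAOY cultures was measured on 4 whole-transcript arrays. The authors deposited an intensity for each probe set and array, on a linear scale. The submitters' processing notes name RMA, with version, settings and build not given in the sources used here. Detection calls and scan information were not used here, batches were therefore not examined, and precision is limited by the number of arrays.

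Of 33297 probe sets, 19460 carry exactly 1 symbol in the platform annotation, 1754 carry several and 12083 are not listed with a gene. The log2 of each intensity was taken, the probe set with the highest mean was kept per gene, and genes under the 25th percentile of mean log2 intensity were left out. The 3 hairpin arrays (ZFX KD in the labels) were set against the scrambled array with limma 3.58.1 in R 4.3.3 (lmFit, then eBayes with an intensity trend), with Benjamini-Hochberg adjustment over 13813 genes. This leaves 2 residual degrees of freedom, all from the hairpins, and takes SCR, a single array, to vary as they do. Single hairpins have 1 array a side and no test. Folds of 1.2 and 1.5 and the position of the scrambled array outside the hairpin arrays served as descriptions. Errors are SDs over hairpins and hold no error for SCR. Promoters are RefSeq's, and motifs were matched on both strands. Python 3.11.15 and matplotlib 3.10.9 drew the figures.

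The members, gene lists and motifs were chosen with earlier results of these data known. Named are all cathepsin genes, ZFX, a fixed set of related genes (SORT1, CD74 and ACP5 among them have no probe set of 1 symbol), and the 5 genes nearest to CTSS. Alternatives were other scalings (median centring, quantile, cyclic loess), no filter or a 50th percentile filter, the mean of a gene's probe sets, no trend, and leaving out each hairpin.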

Additional observations from a re-analysis of the deposited data

How the results depend on the processing

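The count of cathepsins passing the test stayed at 0 under all 10 alternatives. The count below the scrambled array with every hairpin was 6 under median centring, cyclic loess, no filter and the mean of probe sets, 7 after quantile normalization, and 4 of the 6 members tested with the 50th percentile filter. That filter moved the median difference to -0.34, from -0.24, since fewer members were tested. Leaving out each hairpin gave 6 to 7 genes below scrambled (39.4% to 40.6% of all genes) and medians of -0.228 to -0.158. The mean difference of each of the 10 members kept its sign under the 9 alternatives run for it. Each member has 1 probe set, so the filters and the mean of probe sets could not change these means. They also could not change the side of SCR on which an array lay. Nor could leaving out a hairpin turn the sign of a member whose hairpin arrays all lay on the same side of SCR. CTSS ranged from -1.12 to -0.99, with unadjusted limma p-values of 0.000865 to 0.00408, CTSZ from -0.53 to -0.35 and CTSB from -0.53 to -0.30. Of the values for the related lists and members, 24 of 198 moved by more than the spread between hairpins or by over 1.5 times. No paired analysis was possible because the scrambled group has 1 array. With no detection calls, dim genes such as CTSO, CTSE and CTSG could be judged by intensity only.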

Other observations

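A few genes of the related lists were singled out after their values were seen. SERPINA1, the elastase inhibitor alpha-1-antitrypsin, read 767 in SCR and 276 (H2), 524 (H3) and 359 (H4). Its log2 difference averaged -1.04 ± 0.46 (SD, n = 3). It was the lowest of the inhibitor list, and the 3 hairpin arrays were far apart. CPQ, a lysosomal carboxypeptidase, read 553 in SCR and 333 (H2), 409.6 (H3) and 407 (H4), and averaged -0.54 ± 0.17. LRP1, an uptake receptor for protease and inhibitor complexes, was at 49.7%, 85.9% and 79.3% of scrambled with H2, H3 and H4, and so rested mainly on H2. SLC17A5, the sialic acid exporter of lysosomes, went the other way with H2 and H3, at 187.1% and 139.2%, and was level with H4, at 99.5%. TFEC, a relative of TFEB, was dim and under the filter, at 94.1 in SCR and 67.0 (H2), 69.9 (H3) and 60.4 (H4). None of the 4 tested genes passed the test (adjusted p = 0.9998 for each in limma).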
